A study of Homo sapiens with 32 samples.

Results

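A group of 7 human genes was followed across cell lines, times and compounds: CD53, CTSS, TMEM243, EVI2B, SERPINB8, GLIPR1 and LYZ. They were selected on measured values of these libraries, namely a higher level with GSK690*, a compound that the labels describe as inactive, than with the vehicle DMSO, taken over all 4 sets of cell line and time. All 7 are rows of a deposited table of 23073 genes, and all 7 passed the filter on low values, as did 11890 genes in all. The data are RNA-seq profiles of 32 cultures of Kasumi-1 and SKNO-1, established human acute myeloid leukaemia lines that carry the RUNX1-RUNX1T1 fusion, with 2 biological replicates in each of 16 groups. A set is 1 line at 1 time and holds 8 libraries, 2 per agent. The study compared inhibitors of the histone demethylase KDM1A with an inactive isomer and with vehicle.

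The agents were RN-1, an irreversible KDM1A inhibitor, GSK690, a reversible one, GSK690*, the isomer of GSK690, and DMSO. RN-1, GSK690 and GSK690* were given at 1 µM by the titles, and DMSO at 0.1% by the treatment protocol. The labels do not name the change in structure between the isomers. The RPMI medium held 20% fetal calf serum for Kasumi-1 cells. For SKNO-1 it held 10%, together with GM-CSF at 10 ng/mL, a growth factor that all SKNO-1 groups shared and no Kasumi-1 group had by the labels. Titles give 24 or 72 h, while the treatment protocol gives 4 days for SKNO-1, so the later SKNO-1 libraries may be older than their titles. Names of the 24 h libraries begin with 1 prefix and those of the 72 h libraries with others, so time and library series cannot be told apart.

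KDM1A removes methyl groups from histone tails and, in myeloid cells, is brought to its target genes by the repressors GFI1 and GFI1B. Such targets include genes of maturing monocytes and granulocytes, and inhibitors of KDM1A are known to raise them in leukaemic blasts. The 7 genes code for products of different kinds: membrane proteins (CD53, EVI2B, TMEM243), a lysosomal protease and an antibacterial enzyme (CTSS, LYZ), an intracellular protease inhibitor (SERPINB8) and a protein of the CAP superfamily (GLIPR1).

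Depth is unknown, because the values are FPKM (fragments per kilobase of transcript, scaled to library size) and carry no read counts. Replicates correlated across genes with r of 0.995 to 0.998 on the log2 scale, and FPKM summed to between 332648 and 395945 per library. For the 16 libraries at 72 h a sample table by the authors gives the other cell line than the titles do. By the titles used here, each of them had r of 0.990 to 0.994 with 24 h libraries of the titled line and 0.944 to 0.952 with those of the opposite line. Of 8 markers of these lines, MPO, KIT, CD33, PTPRC and RUNX1T1 were expressed in both. CD34 was high in Kasumi-1 (median 106 FPKM) and low in SKNO-1 (0.688 FPKM), and CD38 and POU4F1 were lower in Kasumi-1 (0.676 and 0.168 FPKM) than in SKNO-1 (54.7 and 1.20 FPKM).

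The values that chose the 7 genes are given as a description, with no test of them. The log2 difference of GSK690* minus DMSO, averaged over the 4 sets on the scale of log2(FPKM + 1), was 0.69 for LYZ, 0.66 for GLIPR1, 0.45 for CD53, 0.42 for TMEM243, 0.39 for SERPINB8, 0.32 for CTSS and 0.30 for EVI2B. The adjusted p that picked them ran from 0.00848 to 0.0241. These 7 were all the genes called in that average, so the background called was 0.0589% of 11887 genes tested, with 0 lower, and at an unadjusted p under 0.05 242 genes were higher and 121 lower (limma). LYZ stood just inside the threshold. LRRC18 (log2 0.31, adjusted p = 0.0760) and PITPNC1 (log2 0.36, adjusted p = 0.0822) stood just outside. In any single set limma called 0 genes, with 203 higher and 102 lower at an unadjusted p under 0.05 in Kasumi-1 at 24 h and fewer in all in the other sets. With the replicate number as a block, the average called 34 genes higher and 1 lower, the 7 among them, so 7 is the count of this fit and not a firm size of the isomer response. The choice also rested on single libraries: with each of the 16 GSK690* and DMSO libraries left out in turn, between 2 and 10 genes were called, with 2 to 7 of the 7 among them.

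**Figure D1:**
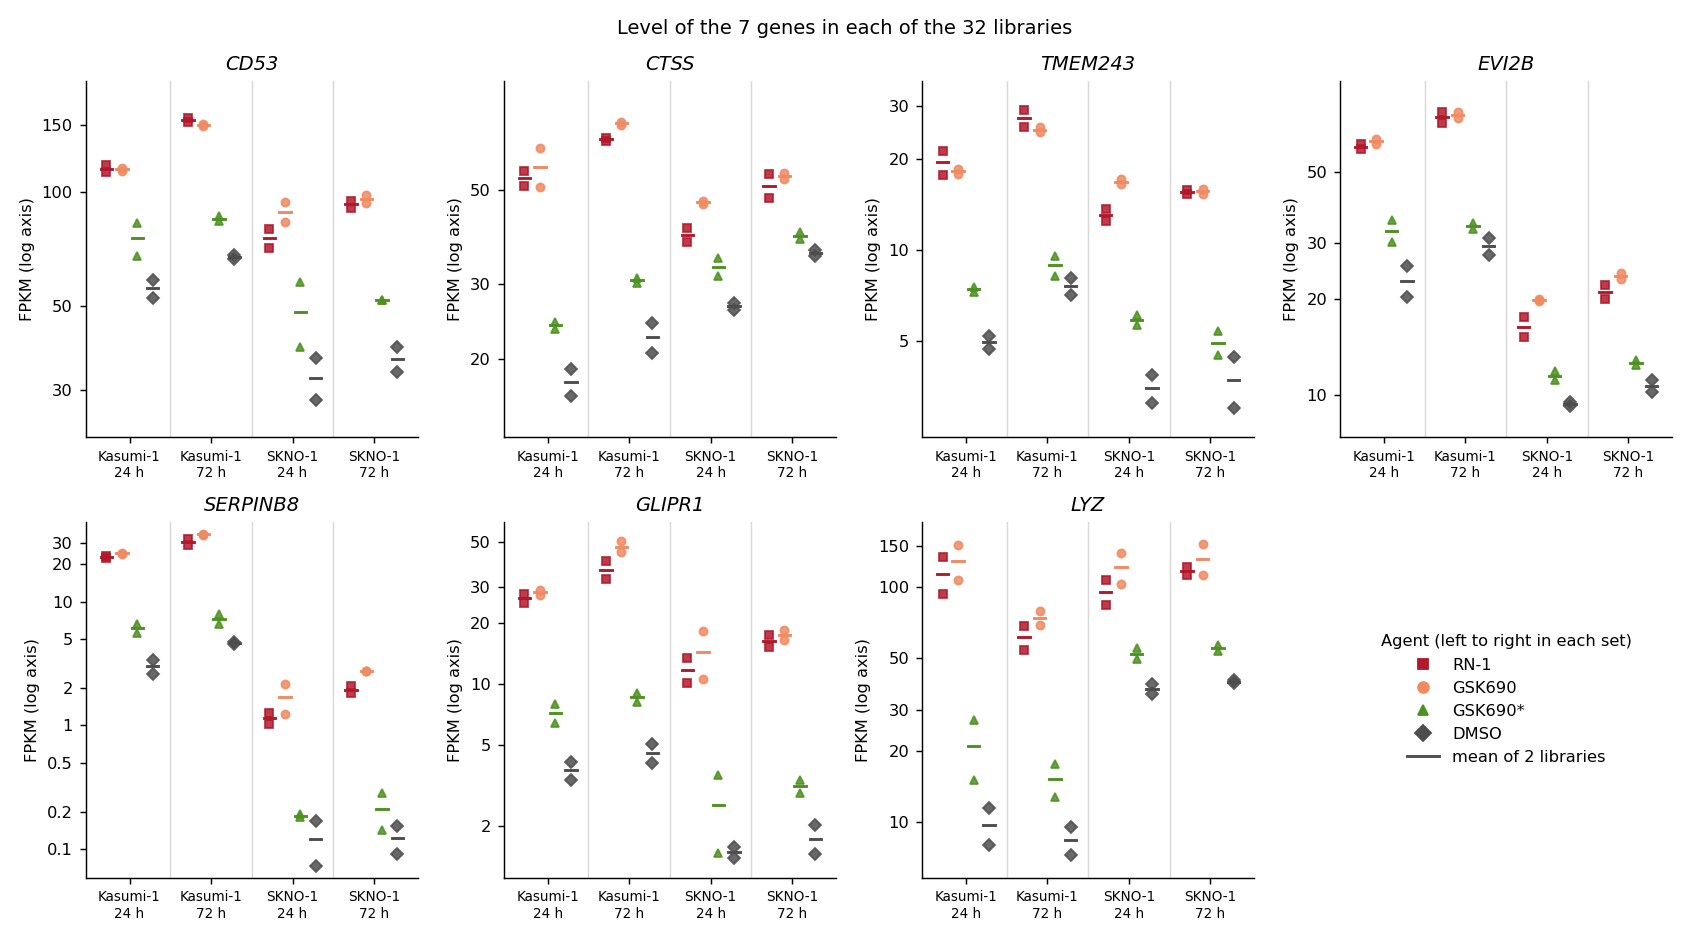
Level of each of the 7 genes in each of 32 libraries, in FPKM on a log axis. Within each set of line and time the agents run RN-1, GSK690, GSK690* and DMSO from left to right, points are libraries and bars are means of 2 libraries. GSK690* libraries sit a short step above DMSO in most sets, and both inhibitors sit above GSK690* in all of them. The gap is narrow for CTSS with RN-1 in SKNO-1 at 24 h, at 37.6 and 40.6 FPKM against 34.4 and 31.3 FPKM with GSK690*.

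CD53 (chromosome 1, 111415774 to 111442550, hg19) codes for a tetraspanin of white blood cells, a protein that organizes others in the plasma membrane. In Kasumi-1 at 24 h it stood at 118 and 112 FPKM with RN-1, 113 and 116 FPKM with GSK690, 82.9 and 67.8 FPKM with GSK690*, and 58.5 and 52.5 FPKM with DMSO. At 72 h the Kasumi-1 values were 157 and 153 FPKM with RN-1, 151 and 149 FPKM with GSK690, 83.6 and 86.0 FPKM with GSK690*, and 67.9 and 66.3 FPKM with DMSO. The isomer formed a step of its own, above DMSO and below both inhibitors, with no overlap. SKNO-1 at 24 h had 79.7 and 70.9 FPKM with RN-1, 94.1 and 83.2 FPKM with GSK690, 57.6 and 38.8 FPKM with GSK690*, and 36.5 and 28.1 FPKM with DMSO. SKNO-1 at 72 h had 94.7 and 90.8 FPKM with RN-1, 93.1 and 98.0 FPKM with GSK690, 51.6 and 51.8 FPKM with GSK690*, and 33.3 and 39.0 FPKM with DMSO. The same order held in SKNO-1, where the GSK690* libraries at 24 h were far apart and the lower one lay near the higher DMSO library.

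Promoter windows from RefSeq (250 bases before to 50 after an annotated start) were available for CD53, TMEM243 and SERPINB8. The first listed start of each is shown. They were searched on both strands for 4 short motifs: TGTGGT (RUNX factors), GAGGAA (PU.1), AAATCA (GFI1) and TTGCNNAA (C/EBP factors). Capitals mark matches. The windows lie at chr1:110870960-110871259 (plus strand), chr7:87220490-87220789 (minus strand) and chr18:63969831-63970130 (plus strand) of GRCh38.p14, and each runs 5′ to 3′.
CD53: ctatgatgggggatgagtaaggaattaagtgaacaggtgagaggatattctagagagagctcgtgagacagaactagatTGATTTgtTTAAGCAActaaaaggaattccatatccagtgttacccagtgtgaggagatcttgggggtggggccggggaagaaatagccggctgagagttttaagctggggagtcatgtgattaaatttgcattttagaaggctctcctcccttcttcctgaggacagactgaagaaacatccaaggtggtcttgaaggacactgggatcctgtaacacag
TMEM243: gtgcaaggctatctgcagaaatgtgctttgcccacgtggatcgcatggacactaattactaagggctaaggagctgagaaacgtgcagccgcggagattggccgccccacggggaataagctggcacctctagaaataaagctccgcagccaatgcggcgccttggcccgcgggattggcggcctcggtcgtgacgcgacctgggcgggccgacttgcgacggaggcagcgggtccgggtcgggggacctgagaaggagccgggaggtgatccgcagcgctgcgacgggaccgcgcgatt
SERPINB8: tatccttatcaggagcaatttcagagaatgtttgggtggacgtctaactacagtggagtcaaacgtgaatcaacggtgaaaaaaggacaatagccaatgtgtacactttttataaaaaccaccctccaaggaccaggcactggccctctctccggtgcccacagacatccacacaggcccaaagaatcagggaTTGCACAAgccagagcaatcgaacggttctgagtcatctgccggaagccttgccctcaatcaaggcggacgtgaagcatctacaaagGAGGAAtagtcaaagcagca
In CD53 the AAATCA motif matched once, as its reverse complement, and so did TTGCNNAA, with no overlap between them. The TMEM243 window held no match to any of the 4. In SERPINB8 TTGCNNAA matched once upstream of the start and GAGGAA once after it. Of 35116 windows of the same length, 13.1% held TGTGGT, 27.9% GAGGAA, 13.2% AAATCA and 10.5% TTGCNNAA, so single matches are common among promoters at large, and a match describes letters, not binding.

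CTSS (chromosome 1, 150702671 to 150738433, hg19), cathepsin S, is a cysteine protease of lysosomes that processes the invariant chain in antigen-presenting cells. Kasumi-1 at 24 h had 51.0 and 55.2 FPKM with RN-1, 50.6 and 62.6 FPKM with GSK690, 23.5 and 24.4 FPKM with GSK690*, and 16.4 and 18.9 FPKM with DMSO. Kasumi-1 at 72 h had 66.1 and 65.1 FPKM with RN-1, 72.0 and 71.1 FPKM with GSK690, 30.2 and 30.9 FPKM with GSK690*, and 24.3 and 20.6 FPKM with DMSO. In this line the inhibitors more than doubled the DMSO level and the isomer libraries lay between. The SKNO-1 steps were smaller. At 24 h it had 37.6 and 40.6 FPKM with RN-1, 47.0 and 46.3 FPKM with GSK690, 34.4 and 31.3 FPKM with GSK690*, and 26.1 and 27.0 FPKM with DMSO. At 72 h it had 54.4 and 47.7 FPKM with RN-1, 54.5 and 53.1 FPKM with GSK690, 38.2 and 39.7 FPKM with GSK690*, and 34.9 and 36.1 FPKM with DMSO. The GSK690* and DMSO libraries did not overlap in any set, but at 72 h in SKNO-1 their means differed by 1.10-fold.

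LYZ (chromosome 12, 69742120 to 69748014, hg19) codes for lysozyme, which breaks down bacterial cell walls and is made in large amounts by monocytes and granulocytes. In Kasumi-1 at 24 h LYZ had 134 and 94.0 FPKM with RN-1, 151 and 107 FPKM with GSK690, 27.3 and 15.04 FPKM with GSK690*, and 11.5 and 7.95 FPKM with DMSO. At 72 h Kasumi-1 had 68.6 and 53.9 FPKM with RN-1, 79.2 and 69.2 FPKM with GSK690, 17.7 and 12.7 FPKM with GSK690*, and 9.48 and 7.23 FPKM with DMSO. The isomer means were 2.18 and 1.82 times the DMSO means here (24 and 72 h), and the replicates spread more than those of the other genes. SKNO-1 at 24 h had 84.2 and 107 FPKM with RN-1, 103 and 141 FPKM with GSK690, 55.0 and 49.3 FPKM with GSK690*, and 35.0 and 38.6 FPKM with DMSO. SKNO-1 at 72 h had 113 and 122 FPKM with RN-1, 113 and 152 FPKM with GSK690, 53.2 and 56.9 FPKM with GSK690*, and 40.4 and 38.9 FPKM with DMSO. All GSK690* libraries lay above all DMSO libraries of their set, from a DMSO level in SKNO-1 several times that of Kasumi-1.

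SERPINB8 (chromosome 18, 61637158 to 61672278, hg19) codes for a clade B serpin, an inhibitor of serine proteases that stays inside the cell. In Kasumi-1 at 24 h SERPINB8 had 22.5 and 23.3 FPKM with RN-1, 24.7 and 24.3 FPKM with GSK690, 6.65 and 5.55 FPKM with GSK690*, and 3.38 and 2.61 FPKM with DMSO. Kasumi-1 at 72 h had 28.5 and 31.9 FPKM with RN-1, 35.4 and 34.4 FPKM with GSK690, 7.90 and 6.55 FPKM with GSK690*, and 4.51 and 4.68 FPKM with DMSO. The 4 agents formed 4 separate levels in this line. SKNO-1 at 24 h had 1.25 and 1.02 FPKM with RN-1, 2.14 and 1.23 FPKM with GSK690, 0.191 and 0.182 FPKM with GSK690*, and 0.0733 and 0.167 FPKM with DMSO. SKNO-1 at 72 h had 2.09 and 1.81 FPKM with RN-1, 2.74 and 2.73 FPKM with GSK690, 0.142 and 0.283 FPKM with GSK690*, and 0.0906 and 0.155 FPKM with DMSO. In SKNO-1 the gene was close to 0 without an inhibitor, and at 72 h the GSK690* and DMSO libraries overlapped.

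EVI2B (chromosome 17, 29630783 to 29641130, hg19) codes for a membrane glycoprotein of blood cells and lies inside an intron of NF1. Its Kasumi-1 values at 24 h were 61.2 and 59.2 FPKM with RN-1, 61.4 and 63.8 FPKM with GSK690, 35.4 and 30.2 FPKM with GSK690*, and 25.4 and 20.3 FPKM with DMSO. At 72 h Kasumi-1 gave 71.7 and 77.3 FPKM with RN-1, 73.9 and 77.4 FPKM with GSK690, 34.6 and 33.1 FPKM with GSK690*, and 31.1 and 27.5 FPKM with DMSO. Inhibitor libraries reached more than 2 times the DMSO level, and the isomer libraries lay just above DMSO. Its SKNO-1 values at 24 h were 15.2 and 17.6 FPKM with RN-1, 20.0 and 19.7 FPKM with GSK690, 11.9 and 11.1 FPKM with GSK690*, and 9.23 and 9.48 FPKM with DMSO. At 72 h SKNO-1 gave 22.2 and 20.0 FPKM with RN-1, 23.2 and 24.1 FPKM with GSK690, 12.4 and 12.9 FPKM with GSK690*, and 10.2 and 11.1 FPKM with DMSO. Isomer and DMSO libraries were separate in all 4 sets, by small margins.

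TMEM243 (chromosome 7, 86825477 to 86849903, hg19) codes for a small membrane protein. The Kasumi-1 cultures at 24 h had 21.3 and 17.6 FPKM with RN-1, 18.5 and 17.9 FPKM with GSK690, 7.56 and 7.29 FPKM with GSK690*, and 4.71 and 5.21 FPKM with DMSO. Those at 72 h had 28.9 and 25.5 FPKM with RN-1, 24.6 and 25.4 FPKM with GSK690, 8.20 and 9.59 FPKM with GSK690*, and 7.10 and 8.06 FPKM with DMSO. At 72 h the lower isomer library was only just above the higher DMSO library. The SKNO-1 cultures at 24 h had 13.7 and 12.5 FPKM with RN-1, 17.1 and 16.5 FPKM with GSK690, 6.09 and 5.64 FPKM with GSK690*, and 3.11 and 3.87 FPKM with DMSO. Those at 72 h had 15.3 and 15.8 FPKM with RN-1, 15.9 and 15.3 FPKM with GSK690, 4.49 and 5.41 FPKM with GSK690*, and 3.01 and 4.45 FPKM with DMSO. Again GSK690* and DMSO were nearly touching at the later time and clearly apart at 24 h.

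GLIPR1 (chromosome 12, 75874459 to 75897633, hg19) codes for a CAP superfamily protein first described in glioma. Kasumi-1 libraries at 24 h held 25.0 and 28.0 FPKM with RN-1, 27.6 and 29.1 FPKM with GSK690, 7.97 and 6.40 FPKM with GSK690*, and 3.35 and 4.15 FPKM with DMSO. Kasumi-1 libraries at 72 h held 32.9 and 40.6 FPKM with RN-1, 44.9 and 50.6 FPKM with GSK690, 9.06 and 8.19 FPKM with GSK690*, and 5.06 and 4.08 FPKM with DMSO. The isomer means were 1.92 and 1.89 times the DMSO means here (24 and 72 h), without overlap. SKNO-1 libraries at 24 h held 13.5 and 10.1 FPKM with RN-1, 18.4 and 10.6 FPKM with GSK690, 3.56 and 1.47 FPKM with GSK690*, and 1.58 and 1.39 FPKM with DMSO. SKNO-1 libraries at 72 h held 17.5 and 15.3 FPKM with RN-1, 18.5 and 16.4 FPKM with GSK690, 2.90 and 3.36 FPKM with GSK690*, and 1.44 and 2.01 FPKM with DMSO. At 24 h in SKNO-1 the isomer and DMSO libraries overlapped and the difference rested on 1 library: on the log2 scale GSK690* minus DMSO was 0.88 without GSK690* replicate 2 and -0.0037 without replicate 1.

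Over the 7 genes and 4 sets, both GSK690* libraries lay above both DMSO libraries in 26 of 28 pairings of gene and set, and 5 of the 7 genes did so in all 4 sets. Among 11862 genes 24 did so in all 4 sets (0.202%). Nothing is read from these counts, since the rule chose the genes for this difference. The step with GSK690* was a minor share of the step with GSK690, and the share depends on the scale. In average log2(FPKM + 1) over the sets it was 0.45 of 1.25 for CD53 and 0.39 of 2.08 for SERPINB8, larger shares than in FPKM. As a percentage of the difference between GSK690 and DMSO in mean FPKM, the difference between GSK690* and DMSO ran from 3.44% (SERPINB8 in SKNO-1 at 72 h) to 33.6% (CD53 in Kasumi-1 at 24 h), with a median of 15.8% over the 28 pairings. Both differences use the same DMSO libraries.

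The rule chose the genes for the numerator of this share, so the shares and their order are a description only, on the FPKM scale. CD53 averaged 27.3% over the 4 sets (21.3% to 33.6%), CTSS 20.7% (16.3% to 31.4%), EVI2B 17.6% (9.87% to 25.0%) and LYZ 13.7% (9.58% to 18.1%). TMEM243 averaged 13.6% (7.56% to 18.6%), GLIPR1 10.1% (7.98% to 14.0%) and SERPINB8 7.69% (3.44% to 14.4%). The ranges of neighbours in this order overlapped, while that of CD53 lay above all values of TMEM243, GLIPR1, SERPINB8 and LYZ. By set the median was 16.3% in Kasumi-1 at 24 h, 9.87% in Kasumi-1 at 72 h, 18.1% in SKNO-1 at 24 h and 15.2% in SKNO-1 at 72 h. In fold terms GSK690* stood between 1.10 times DMSO (CTSS, SKNO-1 at 72 h) and 2.18 times DMSO (LYZ, Kasumi-1 at 24 h).

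**Figure D2:**
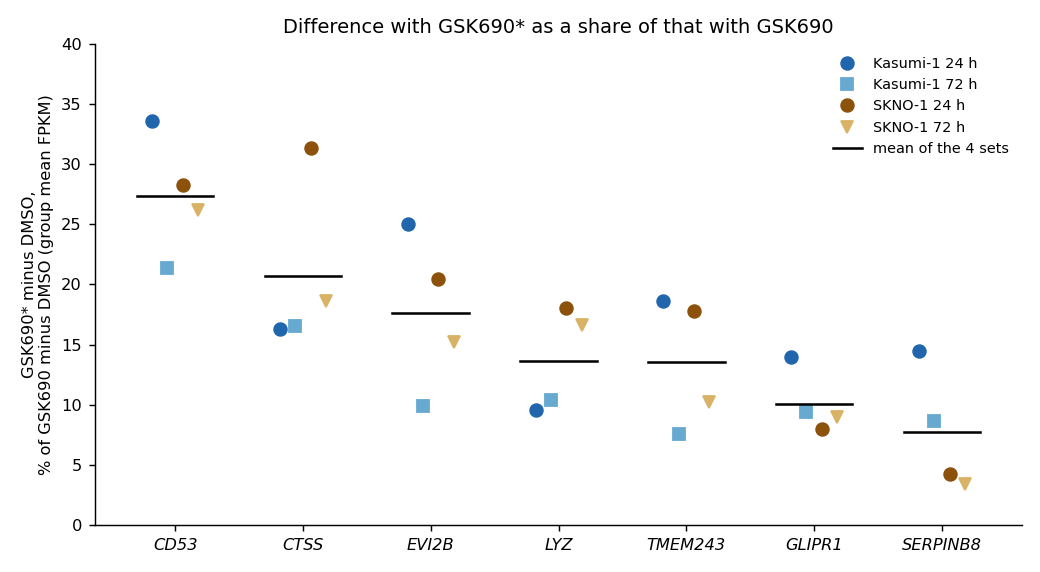
Difference between GSK690* and DMSO as a percentage of the difference between GSK690 and DMSO, from group mean FPKM, for each gene (x axis) in the 4 sets of line and time (points), with the mean of the 4 sets as a bar. CD53 has the highest mean, 27.3%, and SERPINB8 the lowest, 7.69%.

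The isomer pair was compared at the same dose and time. All 7 genes rose with GSK690 over GSK690* in every set (limma on log2(FPKM + 1), adjusted p under 0.05), and all 4 library values of each pairing kept that order in 28 of 28 pairings. The background of genes called higher was 2.52% in Kasumi-1 at 24 h, 6.02% in Kasumi-1 at 72 h, 1.52% in SKNO-1 at 24 h, 2.53% in SKNO-1 at 72 h and 14% in the average of the sets, and 5.43% of 11862 genes had both GSK690 libraries above both GSK690* libraries in all 4 sets. This comparison shares the GSK690* libraries with the rule. In SKNO-1 at 24 h a fit on the 8 libraries of that set alone called 1 of the 7, TMEM243, and the adjusted p of the other 6 ran from 0.0910 to 0.285. In bulk RNA a change in RNA per cell and a change in the share of cells cannot be told apart.

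Averaged over the sets, GLIPR1 rose the most with GSK690 over GSK690*, by log2 2.12 ± 0.11 (SE; adjusted p = 9.64e-12). LYZ rose by 1.81 ± 0.12 (adjusted p = 4.50e-10), SERPINB8 by 1.69 ± 0.068 (adjusted p = 1.08e-13) and TMEM243 by 1.36 ± 0.065 (adjusted p = 1.11e-12). EVI2B, CTSS and CD53 rose by 0.91, 0.84 and 0.80. The median of the 7 was 1.36 and that of all genes tested -0.02. In single sets the differences ran from 0.46 (CTSS, SKNO-1 at 72 h) to 2.59 (LYZ, Kasumi-1 at 24 h).

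Some single-set calls ended when 1 library was left out. Such a fit leaves 1 library in a group, and its SE was larger. Without GSK690 replicate 1 or 2, CD53 in Kasumi-1 at 24 h kept log2 0.62 or 0.59, with an SE of 0.17 in place of 0.14. For CD53 in Kasumi-1 at 24 h (log2 0.60, adjusted p = 0.0141) the adjusted p was 0.0738 when GSK690 replicate 1 was left out, 0.135 when replicate 2 of GSK690 was, and 0.136 when replicate 2 of GSK690* was. In SKNO-1 at 24 h that of CTSS (log2 0.49) was 0.104 without GSK690 replicate 1 and 0.196 without GSK690* replicate 2, and that of LYZ (1.19) was 0.0770 without GSK690 replicate 2 and 0.177 without GSK690* replicate 2. In SKNO-1 at 72 h that of CTSS was 0.0810 and 0.0544 without replicates 1 and 2 of GSK690, and 0.106 without replicate 1 of GSK690*. LYZ (1.24) at that time reached 0.112 without GSK690 replicate 2 and 0.0647 without GSK690* replicate 1. A fit on the 8 libraries of that set alone gave CTSS an adjusted p of 0.116. In each of these fits the difference stayed positive.

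**Figure D3:**
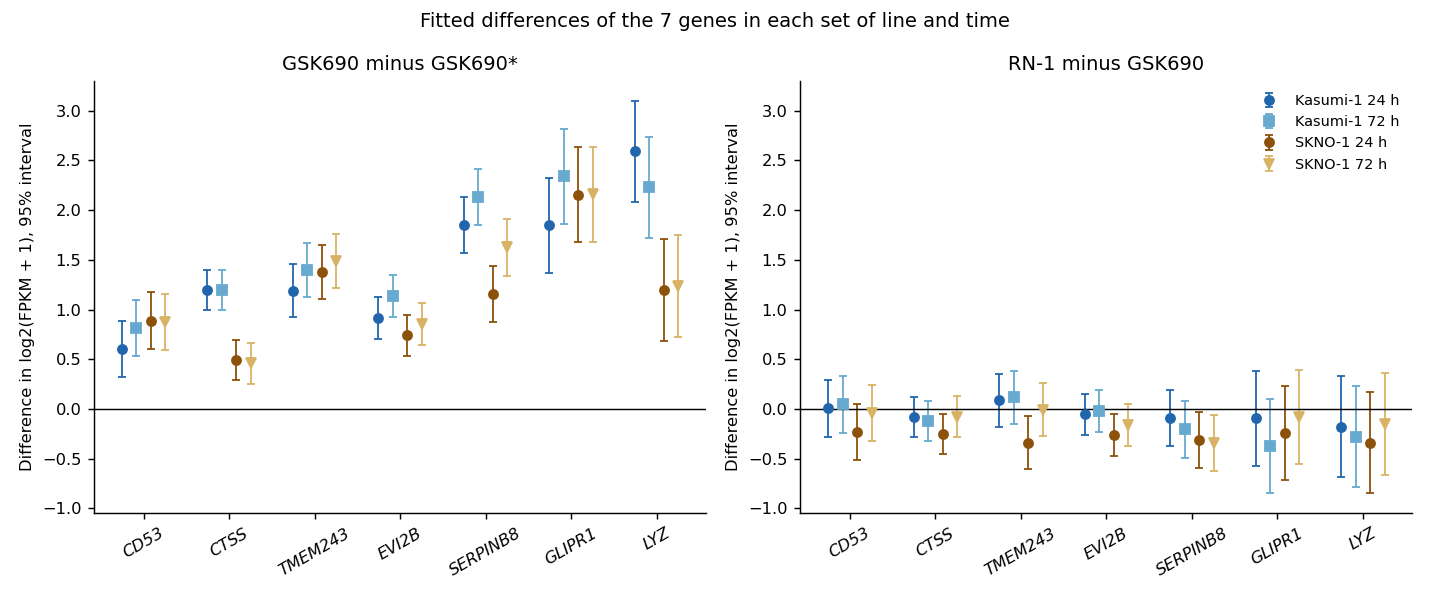
Fitted differences in log2(FPKM + 1) of GSK690 minus GSK690* (left) and RN-1 minus GSK690 (right) for each gene in the 4 sets, with 95% intervals. On the left all 28 intervals lie above 0, from CTSS in SKNO-1 at 72 h (0.46) to LYZ in Kasumi-1 at 24 h (2.59). On the right all values lie between -0.37 and 0.11.

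Against vehicle, all 7 genes rose with either inhibitor in every set. Background called higher with RN-1 over DMSO was 5.47%, 7.44%, 1.82% and 2.94% (Kasumi-1 at 24 and 72 h, SKNO-1 at 24 and 72 h) and 16.3% in the average. With GSK690 over DMSO it was 6.08%, 8.12%, 3.75% and 4.43%, and 17.9% in the average. Both comparisons share DMSO libraries with each other and with the rule, so the choice of the genes favours a rise over DMSO here. In the average of the sets GLIPR1 rose by log2 2.58 with RN-1 and 2.78 with GSK690 over DMSO, LYZ by 2.26 and 2.50, and SERPINB8 by 1.85 and 2.08. TMEM243 rose by 1.74 with RN-1 and 1.78 with GSK690, CD53 by 1.19 and 1.25, EVI2B by 1.09 and 1.21, and CTSS by 1.02 and 1.16. The call of RN-1 over DMSO in SKNO-1 ended for LYZ and CTSS at 24 h without DMSO replicate 1 (adjusted p = 0.0549 and 0.0518) and for CTSS at 72 h without RN-1 replicate 1 (0.0727). A fit on the 8 libraries of the set alone called 1 of the 7 for RN-1 over DMSO in SKNO-1 at 24 h, with adjusted p of 0.0612 to 0.110 for the others, and gave CTSS 0.0742 at 72 h.

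RN-1 and GSK690 were compared directly, from libraries that the rule did not use. None of the 7 genes passed in any set or in the average (limma), and the background was as low: 0% in Kasumi-1 at 24 h, 0.00841% in Kasumi-1 at 72 h, 0% in both SKNO-1 sets and 0.0168% in the average. All 7 average differences were negative, from -0.24 (SERPINB8) to -0.04 (TMEM243), beside a median of 0.0049 over all genes tested. Of 15 other genes that earlier results of these libraries had shown to respond to the inhibitors, 2 had a positive difference. Their median was -0.16, beside -0.13 for the 7, and 1 of them, CD86, was called lower (limma adjusted p = 0.00698). At an unadjusted p under 0.05, 3 of the 7 were lower with RN-1 in the average, beside 0.993% of all genes tested: SERPINB8 (95% interval -0.38 to -0.10), CTSS (-0.23 to -0.03) and EVI2B (-0.23 to -0.02). The interval was -0.49 to 0.02 for LYZ, -0.44 to 0.04 for GLIPR1, -0.20 to 0.09 for CD53 and -0.17 to 0.10 for TMEM243.

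The SKNO-1 libraries at 24 h had the most uniform values, with RN-1 below GSK690 by log2 -0.34 to -0.23 in all 7 genes and 4 of them at an unadjusted p under 0.05, none of which passed after adjustment. In that set 453 of all genes tested (3.81%) were lower and 160 higher at that p, with a median of -0.03. Over the 28 pairings of gene and set, both RN-1 libraries lay below both GSK690 libraries in 12, and above them in 2, CD53 and TMEM243 in Kasumi-1 at 72 h. Over all genes the shares of such pairings were 12.5% below and 13.3% above. A p that misses the threshold does not show that the inhibitors acted alike on these genes.

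Response size differed between the lines for 4 of the 7 genes. With the mean of RN-1 and GSK690 minus DMSO, the difference of Kasumi-1 minus SKNO-1 was log2 1.62 ± 0.21 for LYZ (SE; limma adjusted p = 3.71e-05), 1.28 ± 0.12 for SERPINB8 (adjusted p = 2.75e-07), 0.97 ± 0.084 for CTSS (adjusted p = 1.12e-07) and 0.43 ± 0.087 for EVI2B (adjusted p = 0.00441). The background called in either direction was 4.81% of 11883 genes. CD53 (-0.24), TMEM243 (-0.13) and GLIPR1 (0.17) did not pass, with 95% intervals of -0.48 to 0.01, -0.36 to 0.10 and -0.24 to 0.58.

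For SERPINB8 the direction depended on the scale. With a pseudocount of 0.1 in place of 1 the line difference was -0.23 (adjusted p = 0.687), and GLIPR1, which was not called, had -0.12 in place of 0.17. The ratio of mean FPKM of GSK690 over DMSO for SERPINB8 was 8.18 and 7.60 in Kasumi-1 and 14.0 and 22.3 in SKNO-1 (24 and 72 h), from SKNO-1 DMSO levels near 0. In FPKM the rise was larger in Kasumi-1, to 24.5 ± 0.29 FPKM with GSK690, against 2.996 ± 0.55 FPKM with DMSO at 24 h. In SKNO-1 the same means were 1.69 ± 0.65 and 0.120 ± 0.067 FPKM (SD, n = 2 each). LYZ, CTSS and EVI2B had larger responses in Kasumi-1 both as ratios and on the log2(FPKM + 1) scale. The ratios were 13.3 and 8.89 against 3.31 and 3.34 for LYZ. They were 3.21 and 3.18 against 1.76 and 1.51 for CTSS, and 2.74 and 2.58 against 2.12 and 2.21 for EVI2B. In plain FPKM the LYZ rise at 72 h was larger in SKNO-1. It went from 39.7 with DMSO to 132 FPKM with GSK690 there, and from 8.35 to 74.2 FPKM in Kasumi-1. At 24 h it was larger in Kasumi-1, from 9.72 to 129 FPKM, against 36.8 to 122 FPKM in SKNO-1.

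**Figure D4:**
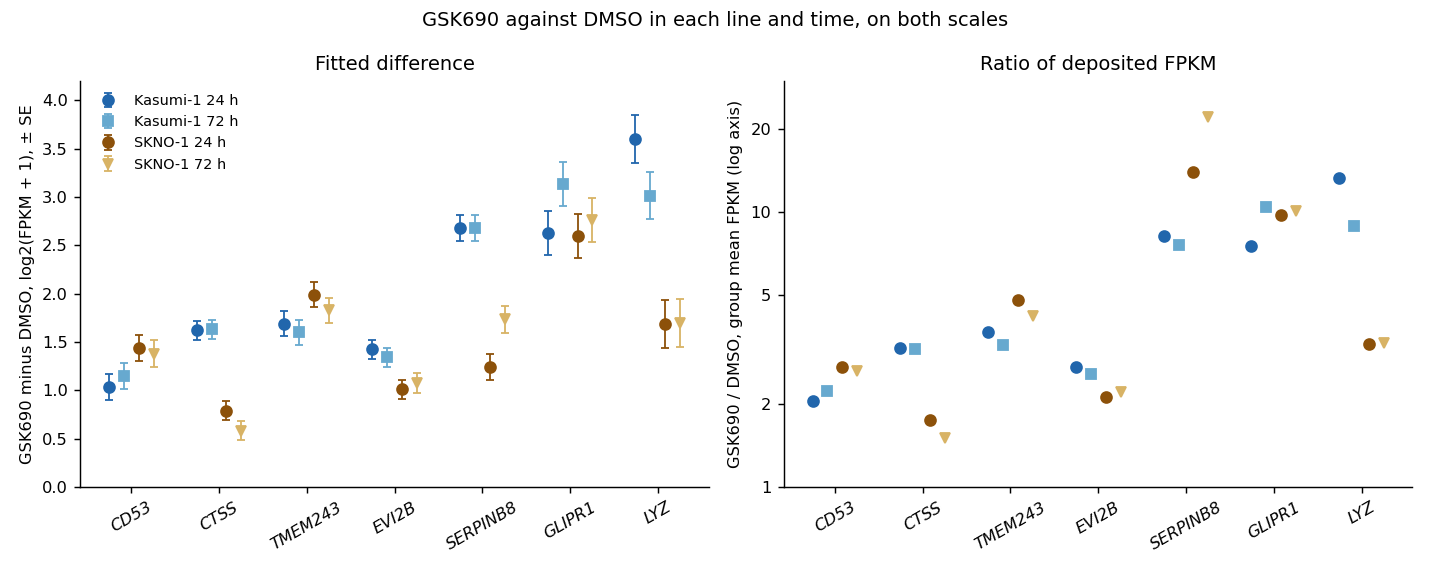
GSK690 against DMSO for each gene in the 4 sets, as the fitted difference in log2(FPKM + 1) with its SE (left) and as the ratio of group mean FPKM on a log axis (right). LYZ, CTSS and EVI2B are higher in Kasumi-1 on both panels, whereas SERPINB8 is higher in Kasumi-1 on the left and in SKNO-1 on the right, where its ratio reaches 22.3.

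Vehicle levels differed between the lines for all 7 genes, beside a background of 68.7% of genes called. Of these, 5 were higher in Kasumi-1: SERPINB8 (log2 2.07), EVI2B (1.28), GLIPR1 (0.98), CD53 (0.83) and TMEM243 (0.64). LYZ (-1.98) and CTSS (-0.60) were lower in Kasumi-1 than in SKNO-1, and these 2 were among the genes with the larger log2 response in Kasumi-1. With inhibitors LYZ ranges overlapped between the lines at 24 h, 94.0 to 151 FPKM in Kasumi-1 and 84.2 to 141 FPKM in SKNO-1. At 72 h they did not, at 53.9 to 79.2 FPKM in Kasumi-1 and 113 to 152 FPKM in SKNO-1.

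The step with GSK690* minus DMSO, which chose the genes, is described by line and time without a test. On the log2(FPKM + 1) scale its difference of Kasumi-1 minus SKNO-1 ran from -0.15 (CD53) to 0.59 ± 0.14 (SE; SERPINB8), and that of 72 h minus 24 h from -0.28 (TMEM243) to 0.09 (GLIPR1). As ratios of mean FPKM, GSK690* over DMSO for SERPINB8 was 2.04 and 1.57 in Kasumi-1 and 1.55 and 1.73 in SKNO-1 (24 and 72 h), so on that scale the lines overlapped. For the mean of both inhibitors minus DMSO, 0 of 7 differed between 72 and 24 h (limma; background 0%), with 0 at an unadjusted p under 0.05 and values from -0.27 to 0.31. At 72 h in SKNO-1, 2 of the 8 library names carry another prefix. Within the 6 that share one, the means of all 7 genes kept GSK690* above DMSO and both inhibitors above GSK690*. CD53 for example averaged 90.8 FPKM in 1 RN-1, 95.6 in 2 GSK690, 51.7 in 2 GSK690* and 39.0 FPKM in 1 DMSO library. For SERPINB8 1 of the GSK690* libraries (0.142 FPKM) lay below that DMSO library (0.155 FPKM), and for TMEM243 the means were close, at 4.95 and 4.45 FPKM.

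Genes related to the 7 by family, by place or by response were read beside them. Outside the 7, no tested gene of the lists described here passed in GSK690* minus DMSO. This was fixed by the choice of the 7, which were all the genes called there, so nothing is read from it. Of 18 tested tetraspanins other than CD53, 5 rose and 1 fell with GSK690 over GSK690* (median log2 0.08, against -0.02 over all genes tested, of which 14% were called higher and 15.7% lower): TSPAN7 (1.76) and CD82 (0.69) rose and CD151 (-0.33) fell. Of 14 other cathepsins and cystatins, which inhibit them, 4 rose and 1 fell (median 0.17), with CTSO at 1.10, CTSH at 0.57 and CTSB at 0.49. These counts and the next ones come from few genes and are read as counts only. Of 3 other clade B serpins SERPINB9, an inhibitor of granzyme B, rose (0.54), and of 4 other CAP superfamily genes PI16 rose (1.71).

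Among 10 tested myeloid granule proteins other than LYZ, 0 rose, 3 fell and 7 did not pass with GSK690 over GSK690* (limma), beside 14% higher and 15.7% lower over all genes: the neutrophil proteases PRTN3 (log2 -0.78) and CTSG (-0.61), and the granule proteoglycan SRGN (-0.31). Of 14 tested monocyte and macrophage markers 9 rose and 0 fell (median 0.68), beside the same 14% and 15.7%, LY96, which pairs with TLR4, by 2.77, and ITGAM, an integrin chain, by 1.17. The summed level of the 27 markers in this list was 319 to 436 FPKM with RN-1, 313 to 377 with GSK690, 252 to 289 with GSK690* and 250 to 261 FPKM with DMSO in Kasumi-1. In SKNO-1 it was 121 to 178, 126 to 175, 111 to 146 and 101 to 145 FPKM in the same order of agents. AIF1 made up most of this sum, at 170 to 312 FPKM in Kasumi-1 and 62.7 to 110 FPKM in SKNO-1. FCGR1A (21.5 to 37.0 FPKM in Kasumi-1, 10.2 to 34.2 FPKM in SKNO-1) and CD68 (15.1 to 30.7 and 2.03 to 9.66 FPKM) were expressed too, while CD14 stood at no more than 0.108 FPKM in Kasumi-1 and 0.262 FPKM in SKNO-1, and FCGR3A at or near 0. The part of these markers in the result was not tested.

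A list of 15 genes that earlier results of these libraries had shown to respond to the inhibitors served as a comparison of the size of the isomer step. All 15 rose with GSK690 over GSK690* (median log2 2.10), which the choice of the list fixes. GSK690* minus DMSO had a median of 0.42 in the 7 genes, which the rule chose for it, and of 0.16 in the 15. Among the 15 it reached 0.38 (TSPAN7), 0.33 (RGMB) and 0.33 (ANXA2). Several of the 15 lay under 1 FPKM with DMSO, where the log2(FPKM + 1) scale understates fold changes. LY96 in SKNO-1 at 24 h, for example, had 0.379 FPKM with DMSO and 0.804 FPKM with GSK690*. These medians therefore do not rank the fold changes of the 7 and the 15. That none of the 15 passed was fixed, since the 7 were all the genes called. The 15 values come from the same libraries and are not separate results. The share of all genes with a positive GSK690* minus DMSO value was not taken, and rises of the 15 over DMSO use the same DMSO libraries. Nothing is therefore read from its sign, which was positive in 14 of the 15, beside a median of -0.008 over all genes tested. The exception was KCTD12, whose GSK690 minus GSK690* difference of 2.63 was above those of all 7 genes, at -0.08 for GSK690* minus DMSO. CD86, a ligand for T cell costimulation, had 2.10 for GSK690 minus GSK690* and 0.06 for GSK690* minus DMSO. Of 15 tested myeloid transcription factors 3 rose, 2 fell and 10 did not pass with GSK690 over GSK690* (limma), beside 14% higher and 15.7% lower over all genes. The 3 were GFI1B (1.69), GATA2 (0.56) and GFI1 (0.48), with 0.14, 0.06 and 0.16 for GSK690* minus DMSO. In Kasumi-1 the group means of GFI1B were at most 0.289 FPKM.

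Neighbouring genes were read because transcripts overlap. EVI2A, 3447 bases from EVI2B within the same NF1 intron, rose by log2 0.59 (adjusted p = 5.19e-07) with GSK690 over GSK690* and had 0.27 for GSK690* minus DMSO (adjusted p = 0.1997). OMG, on the other side, rose by 0.36. Of the nearest tested genes elsewhere, KIAA1324L (0.34) and CROT (0.13) on either side of TMEM243 and NAP1L1 beyond GLIPR1 (0.15) rose. In SKNO-1 the group means were 0 FPKM for CROT and at most 0.0421 FPKM for KIAA1324L, so their averages rest on Kasumi-1. LRIF1 and LAMTOR5 beside CD53, HORMAD1 and CTSK beside CTSS, VPS4B and TMX3 far from SERPINB8 (547442 and 4668646 bases), ATXN7L3B on the other side of GLIPR1 and YEATS4 beside LYZ did not pass, and CPSF6, on the other side of LYZ, fell by 0.13. By the deposited loci TMEM243 overlaps DMTF1, EVI2B overlaps NF1 and CTD-2370N5.3, GLIPR1 overlaps KRR1 and SERPINB8 overlaps HMSD. Library strand is not given in the sources used here, so reads in these overlaps may be counted under either gene.

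The 7 genes varied together over the libraries. Their choice for a shared GSK690* step and their rise with both inhibitors fix this in part. No r among other genes raised by the inhibitors was taken as a background. With each gene centred on the mean of the 8 libraries of its set, Pearson r between members ran from 0.843 (CD53 and CTSS) to 0.982 (EVI2B and SERPINB8) over 21 pairs, with a median of 0.951, as a description over 32 libraries that share agents. Genes outside the 7 with the most similar pattern were GPR65, a proton-sensing receptor, for EVI2B (r = 0.987) and LYZ (0.978), LPXN for CTSS (0.983) and RGMB for GLIPR1 (0.983) and TMEM243 (0.977). TLR1 came first for SERPINB8 (0.974) and HVCN1, a proton channel, for CD53 (0.966). GPR65 and PITPNC1, second for CD53 (0.964), also stood close to the threshold of the rule, with adjusted p = 0.0990 and 0.0822.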

How the data were processed

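RNA-seq of 32 libraries was used, 2 biological replicates in each of 16 groups, as the labels number them. The authors deposited FPKM per gene; per the submitters' processing notes TopHat 1.4.1, Cufflinks and hg19 were used, and the annotation, strand and any further scaling are not given in the sources used here. Since FPKM are not counts, values were taken as log2(FPKM + 1), which understates fold changes of low genes. Genes with at least 1 FPKM in 2 libraries were kept (11890). A mean per group was fitted to all libraries with limma 3.58.1 in R 4.3.3 (variance trend, 16 residual and 5.23 prior degrees of freedom), and 2-sided p were adjusted by Benjamini and Hochberg over all tested genes, with a threshold of 0.05. Missing values were left out (102 values in 30 genes, none in the 7). The fit was tested on simulated data. Depth is unknown, so no counting error is given. The genes and lists were chosen with earlier results of these data known. Other genes were named by rule: up to 3 called genes of each list with the largest difference, any of the 15 response genes, the nearest tested gene on each side, and the 2 most correlated genes. Promoters came from RefSeq (GRCh38.p14), matched by symbol for 3 of the 7. Other settings tried were a smaller pseudocount (0.1), all genes kept, quantile or median-of-ratios scaling, a replicate block, a term for library prefix, a fit per set and leaving out each library.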

Additional observations from a re-analysis of the deposited data

Results flagged for a closer look

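The response to the inhibitors differed between the lines for 4 of the 7 genes by a test of the difference itself (limma, mean of RN-1 and GSK690 minus DMSO, Kasumi-1 minus SKNO-1). The difference was log2 1.62 for LYZ, 1.28 for SERPINB8, 0.97 for CTSS and 0.43 for EVI2B. Those of LYZ, CTSS and EVI2B kept their direction and call in every alternative fit, all of them on a log2 scale. That of SERPINB8 turned to -0.23 with a pseudocount of 0.1, on which scale its low SKNO-1 values weigh more. The lines also differ in medium, since SKNO-1 alone received GM-CSF, so line and medium cannot be told apart.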

How the results depend on the processing

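Counts of the 7 genes called in each comparison stayed within 1.5 times in all alternatives except 2. Both were in SKNO-1 at 24 h, in a fit on the 8 libraries of that set alone. It called 1 of 7 for GSK690 minus GSK690* and 1 of 7 for RN-1 minus DMSO. The same kind of fit called 7 of 7 for GSK690 minus GSK690* in Kasumi-1 at 24 and 72 h. Why the calls ended in SKNO-1 at 24 h was not tested. With 1 library left out, counts of 7 were 5 to 7 for GSK690 minus GSK690* and for RN-1 minus DMSO, and 7 throughout for GSK690 minus DMSO. A pseudocount of 0.1 reversed the line difference of SERPINB8 (-0.23) and of GLIPR1 (-0.12), which left 3 of the 7 called in place of 4. Where single-set values are given only as ranges (RN-1 minus GSK690, and differences between times or lines), 31 of 805 alternative values changed sign and 0 changed their call. The rule's own count of 7 genes was 11 with a pseudocount of 0.1, 5 without the filter (4 of the 7 among them), 8 with the median of ratios and 10 with the prefix term. With the replicate block it was 34 higher and 1 lower, and the calls of the 7 in the other comparisons were unchanged, with 7 of 7 for GSK690 minus GSK690* and 4 of 7 for the line difference. Same-numbered libraries deviated together with r of 0.0432 to 0.697 over 24 pairs, 22 of them over 0.1, and the labels do not say what the numbers share, so they were not used as pairs. Depth is unknown, and SERPINB8 in SKNO-1 without inhibitor lay under 0.3 FPKM.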
